A study of Cucumis melo with 4 samples.

Results

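Of the 5493 binding peaks listed for the melon transcription factor CmNOR, 739 (13.5%) lay 1 to 5 kb from a neighbouring peak, and they are described here. The peaks were sorted along each sequence, and the gap was taken as the number of bases between the end of a peak and the start of the next. Every adjacent pair with a gap of at least 1 kb and under 5 kb was kept, which gave 389 pairs, or 7.10% of the 5480 adjacent pairs. The peaks were thus chosen by the measured gap, and neither the number of pairs nor their spacing is a finding. At the edges of the rule, the closest pair kept was 1000 bp apart and the widest spaced one 4997 bp, while the nearest pairs left out had gaps of 993 and 5007 bp.

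CmNOR belongs to the NAC family of plant transcription factors, which bind DNA as dimers through a conserved domain, and it is named after the NON-RIPENING gene that acts in tomato fruit ripening. Plant promoters commonly hold several binding sites of 1 factor, and a site may lie upstream of a gene, inside it or past its end. In DNA affinity purification sequencing (DAP-seq), bacterially produced protein on a tag pulls down pieces of naked genomic DNA, which are then sequenced, so the peaks record binding without chromatin.

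The 4 libraries were made from Cucumis melo genomic DNA with proteins expressed in E. coli. In 2 libraries the bait was MBP-His-CmNOR, which is CmNOR carrying maltose-binding protein and a His tag. The other 2, the negative controls, used MBP-His without CmNOR. The labels give neither the melon variety nor the tissue that supplied the DNA. The peaks form 1 combined list with positions, an assigned gene, a location class and Gene Ontology (GO) terms, but no score and no value per library. Depth and agreement between the repeats are therefore unknown, no group was compared with another, and no test was made on these pairs. Intervals in brackets are 95% exact binomial intervals and cover counting error only. Pairs that share a peak or a stretch of DNA are not independent, nor are the 2 peaks of a pair. Positions follow the coordinates of the deposited table, for which the labels name no genome build.

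Most pairs did not join a longer run of peaks at this spacing. The 739 peaks formed 350 groups, of which 314 were single pairs, 33 were runs of 3 peaks and 3 were runs of 4. Peaks closer than 1 kb do not count toward these runs, and 16 of the 739 had such a neighbour. Gaps had a median of 2908 bp, with quartiles of 1843 and 3868 bp, against a median of 44593 bp over all adjacent pairs. There were 110 pairs with a gap under 2 kb, 95 at 2 to 3 kb, 99 at 3 to 4 kb and 85 at 4 to 5 kb.

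**Figure D1:**
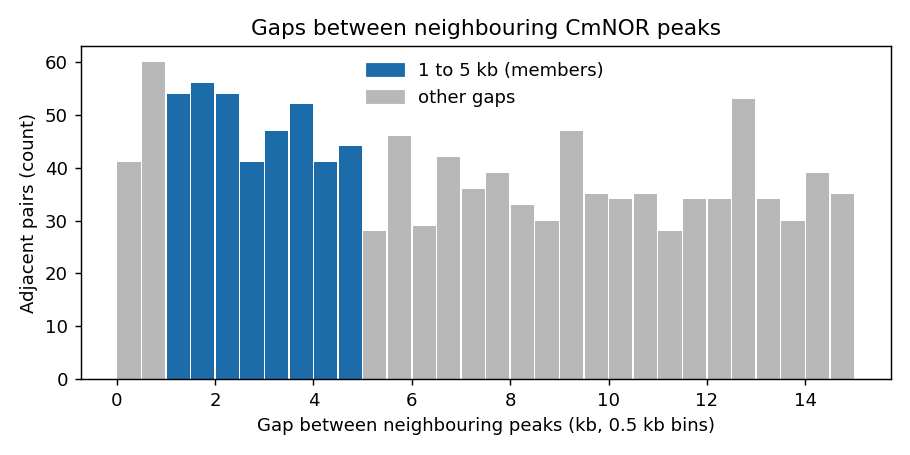
Number of adjacent peak pairs (vertical axis) by the gap between them in kb (horizontal axis, bins of 500 bp), with the 389 pairs of 1 to 5 kb in blue and other gaps in grey. Counts per bin between 1 and 5 kb ran from 41 to 56, and the 5 pairs whose peaks overlapped are left out.

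Both peaks of a pair were usually assigned to 1 gene. This held for 285 of the 389 pairs, or 73.3% (68.6 to 77.6), and those pairs named 259 genes. The other 104 pairs named a different gene for each peak. The share with 1 gene was 89.1% (81.7 to 94.2) for gaps under 2 kb, 77.9% (68.2 to 85.8) at 2 to 3 kb, 71.7% (61.8 to 80.3) at 3 to 4 kb and 49.4% (38.4 to 60.5) at 4 to 5 kb. Outside the range it was 90.6% (83.3 to 95.4) for the 106 pairs closer than 1 kb and 46.8% (41.6 to 52.1) for the 365 pairs at 5 to 10 kb. The share was thus lower at wider gaps, and the gap of 4 to 5 kb was the first within the range at which different genes were about as frequent as 1 gene. Close peaks often have the same nearest gene start, so part of this pattern follows from how genes are assigned. How large that part is was not tested.

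Most pairs had no edge of a listed gene between their centres. Each pair was placed against all 4510 genes that the list assigns to any peak, since a gene without an assigned peak has no coordinates in the list. There was no listed gene edge between the centres of 215 pairs (55.3%, 50.2 to 60.3), and a further 41 pairs (10.5%, 7.67 to 14.0) had both centres inside 1 listed gene. A whole listed gene fitted between the facing peak edges in 30 pairs (7.71%, 5.26 to 10.8). In 73 pairs (18.8%) a gene start, but no whole gene, lay between the centres, and in 30 pairs (7.71%) this was so of a gene end alone. Counting every pair with a gene start between its centres, whole genes included, gave 103 pairs, or 26.5% (22.2 to 31.2). That share was 12.3% (6.69 to 20.1) in pairs closer than 1 kb and 43.0% (37.9 to 48.3) in pairs at 5 to 10 kb. A gene can only fit in a gap longer than itself. Counted once per paired peak, the assigned genes had a median length of 2658 bp, close to the median gap.

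**Figure D2:**
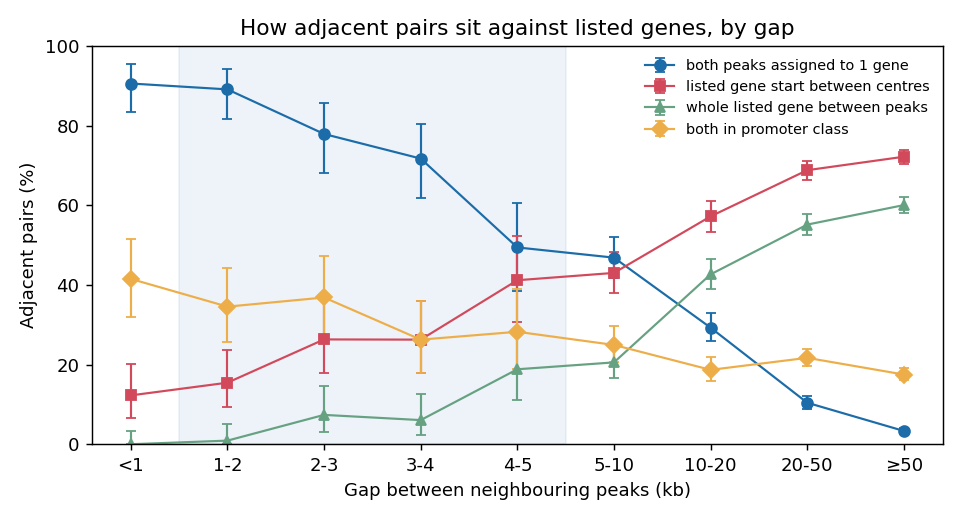
Share of adjacent pairs (vertical axis, percent) in each gap range (horizontal axis, kb) with 1 assigned gene, a listed gene start between the centres, a whole listed gene between the peaks, or both peaks in the promoter class. Points are shares, bars are 95% exact intervals and the shaded ranges are those of the 389 pairs, over which the share with 1 gene goes from 89.1% to 49.4%.

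Among the 285 pairs assigned to 1 gene, the commonest layout was both peaks upstream of it. By peak centre, 125 pairs (43.9%, 38.0 to 49.8) had both peaks upstream of the gene start and 60 (21.1%, 16.5 to 26.3) had both past the gene's end. The pair lay on either side of the gene start, with 1 peak upstream and 1 inside the gene, in 46 cases (16.1%, 12.1 to 20.9). Both peaks were inside the gene in 31 pairs (10.9%), 1 was upstream and 1 past the end in 14 (4.91%), and 1 was inside and 1 past the end in 9 (3.16%). Upstream was also the commonest place in the whole list, with 52.4% of all 5493 peaks, against 26.8% past the gene's end and 20.7% inside. Layouts were not counted for pairs at other gaps. Genes with both peaks inside were long, with a median of 7607 bp, and genes with a peak upstream and a peak past the end were short, with a median of 729 bp. This contrast follows from construction. A gene holding both centres is longer than the gap, and a gene between the centres is shorter than the distance between them.

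Many of the doubly upstream pairs were far from the gene they were assigned to. Their nearer peak lay a median of 5495 bp from the gene start, with quartiles of 2011 and 15324 bp, and in 46 of the 125 pairs it was more than 10 kb away. In pairs past the gene's end, the nearer peak lay a median of 8184 bp from the start, and 27 of the 60 were beyond 10 kb. The pairs across a gene start were close by construction, with the nearer peak a median of 678 bp away. In all, 152 of the 285 pairs had at least 1 peak within 3 kb of the start.

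**Figure D3:**
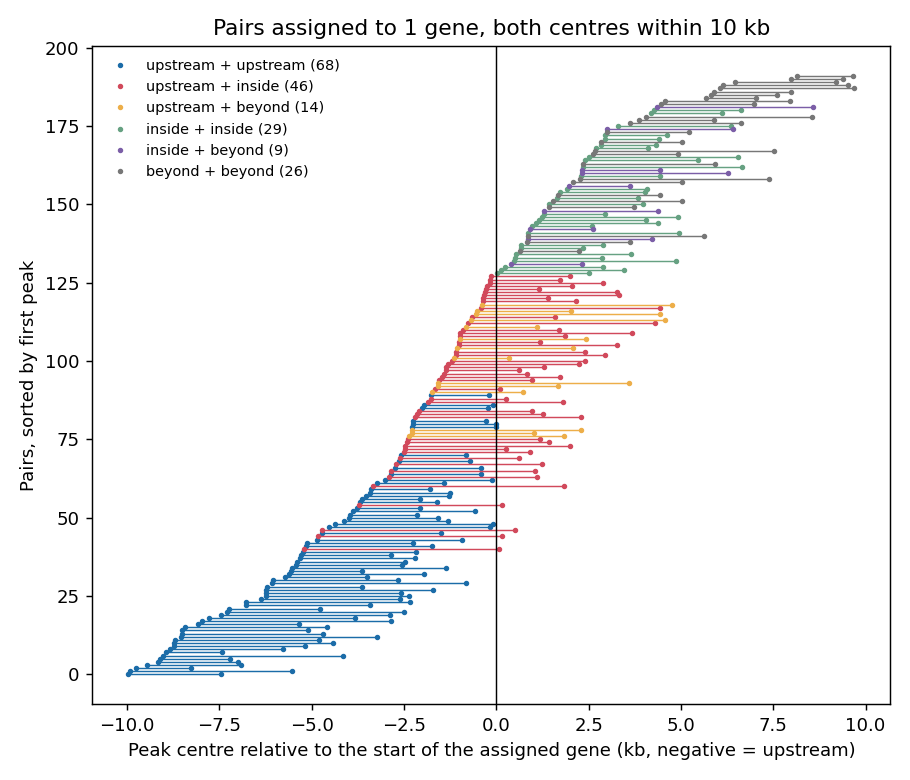
Centres of both peaks (dots joined by a line) relative to the start of their shared gene (horizontal axis, kb, negative is upstream), 1 pair per line, for the 192 pairs with both centres within 10 kb. Colours give the layout, 68 of these pairs have both peaks upstream and 46 lie across the start, and the other 93 pairs assigned to 1 gene reach further than 10 kb.

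In 11 genes both peaks lay upstream of the start within the authors' promoter class, which reaches 3 kb to either side of the start. These 11 were picked out after their values were seen. MELO3C005561.2, annotated as a copper-binding oxidoreductase that oxidizes metal ions, had peaks at 22482213 to 22482587 and 22483791 to 22484153 of chromosome 9, which lay 1586 and 20 bp upstream of its start with 1203 bp between them. MELO3C019401.2 on chromosome 6, a gene annotated with DNA binding and regulation of transcription, had its peaks at 10223312 to 10223874 and 10225212 to 10225520, and these were 2300 and 654 bp upstream. The peak nearer the gene was 309 bp wide and the farther one 563 bp.

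A peak covered the gene start in 4 of those 11 genes, with the partner further upstream. MELO3C020380.2 on chromosome 5, a translation initiation factor gene, had a peak over its start and one 2126 bp upstream. The gene MELO3C023314.2 on chromosome 11, annotated with dihydrofolate reductase and thymidylate synthase activity, which serve DNA precursor synthesis, had the same layout with the partner 2081 bp upstream. For MELO3C027616.2 on chr0, annotated with nucleic acid and zinc binding, the partner was 1674 bp upstream. For MELO3C030296.2 on chromosome 3, which has no GO term, it was 2829 bp upstream.

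Of the other 7, MELO3C025699.2 on chromosome 11 and MELO3C032569.2 on chromosome 7 also carry GO terms. The first, a transmembrane transport gene, had peaks 562 and 2475 bp upstream. The second, annotated with ATP binding and cell division, had peaks 158 and 2525 bp upstream. MELO3C024136.2, MELO3C021719.2 and MELO3C031149.2 have no GO term, and their nearer peaks lay 2, 52 and 195 bp upstream.

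The tightest doubly upstream pairs were mostly remote from genes. Of the 6 with the smallest gaps, 5 had both peaks in the distal intergenic class. The exception was the DNA-binding gene MELO3C011064.2 on chromosome 3, with peaks 1821 and 3404 bp upstream and 1119 bp apart. MELO3C034790.2 on chromosome 11, a calcium-binding gene, had peaks 8069 and 9548 bp upstream. The protein kinase gene MELO3C013624.2, also on chromosome 11, had them 14047 and 15609 bp upstream. MELO3C031731.2 on chromosome 6, annotated as a pyridoxal kinase gene of vitamin B6 salvage, had peaks 7193 and 8795 bp upstream. For MELO3C010579.2 on chromosome 3, without a GO term, they were 11538 and 12906 bp upstream. The pair with the smallest gap of all, 1000 bp, was on chromosome 12 at 18813426 to 18813905 and 18814906 to 18815321. It was assigned to the defense gene MELO3C002872.2, whose start was 389883 bp away, so the assignment there says little beyond which listed start was nearest.

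Pairs that straddled a gene start included genes of metabolism and chloroplast division. The closest was at MELO3C002304.2 on chromosome 12, an exopolyphosphatase gene, with peaks at 25024242 to 25024661 and 25025692 to 25026046, 64 bp upstream and 967 bp inside the gene. MELO3C011266.2 on chromosome 3, a transferase gene, had a peak over its start and one 1350 bp upstream. The sugar-transferring (hexosyltransferase) gene MELO3C026367.2 on chromosome 7 had peaks 114 bp upstream and 1214 bp inside. MELO3C017048.2, also on chromosome 7 and annotated with chloroplast fission, had a peak over its start and one 1437 bp inside. MELO3C030276.2 on chromosome 3, which has no GO term, had peaks 1094 bp upstream and 447 bp inside. Of the 46 pairs of this layout, 36 had both peaks in the promoter class.

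In 12 pairs assigned to 1 gene, the whole of that gene lay between the peaks. The shortest gap of this kind, 1482 bp, enclosed MELO3C030550.2 on chromosome 4, a gene of 306 bp annotated with leucocyanidin oxygenase activity and the synthesis of anthocyanin pigments. Its peaks at 15349145 to 15349664 and 15351147 to 15351482 lay 843 bp from its start on the far side of the gene and 640 bp upstream, and a further peak 5841 bp upstream made it a run. MELO3C006163.2 on chromosome 6, an oxidoreductase gene of 162 bp, had peaks 335 bp upstream and 1735 bp away past its end. The protein ubiquitination gene MELO3C007321.2 on chromosome 8 had peaks 717 bp upstream and 1915 bp from the start past its end. The alternative oxidase gene MELO3C027020.2 on chromosome 7, whose product is a respiratory enzyme of plant mitochondria, had them 700 bp upstream and 2268 bp from the start. MELO3C011674.2 on chromosome 3, of 219 bp and without a GO term, lay about midway between its peaks, 1415 and 1425 bp from its start.

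Of the 104 pairs assigned to different genes, the largest group named neighbours that point the same way. There were 51 such tandem pairs (49.0%, 39.1 to 59.0), 30 pairs of genes pointing away from each other (28.8%, 20.4 to 38.6) and 23 of genes pointing toward each other (22.1%, 14.6 to 31.3). Orientation was not counted for pairs at other gaps, so this split cannot be called particular to these pairs. Both peaks were in the promoter class in 31 of the tandem, 17 of the divergent and 8 of the convergent pairs. In 15 of the 30 divergent pairs no listed gene edge lay between the peaks. In 11 more a gene start lay between them, and 4 enclosed a whole gene.

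The 5 closest divergent pairs in the promoter class lay from just inside a gene to more than 2 kb upstream of it. On chromosome 1, peaks 1191 bp apart lay 340 bp inside the chloroplast oxidoreductase gene MELO3C018839.2 and 777 bp inside the membrane protein gene MELO3C018840.2. On chromosome 8, peaks 1563 bp apart lay 328 bp inside MELO3C008063.2, annotated as pyruvate dehydrogenase, which makes acetyl-CoA, and 32 bp inside the hydrolase gene MELO3C008064.2. At 2 other loci both peaks fell between the genes. On chromosome 12 they were 2548 bp upstream of MELO3C002239.2, which has no GO term, and 1717 bp upstream of the rRNA methyltransferase gene MELO3C002238.2. On chromosome 8 they were 2018 bp upstream of the protein dimerization gene MELO3C007570.2 and 1447 bp upstream of MELO3C007571.2, a ubiquitin-specific protease gene. The remaining pair, on chromosome 3, had a peak 1486 bp upstream of MELO3C019941.2 and one over the start of MELO3C030048.2, and neither gene has a GO term.

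Neighbouring genes with identical GO terms were named by 6 of the 104 pairs, and all 6 were tandem. Both genes carried GO terms in 70 of the 104 pairs. In 15 of these 70 (21.4%, 12.5 to 32.9) they had at least 1 term in common, and in 6 (8.57%, 3.21 to 17.7) the same set. Among adjacent pairs at 5 to 10 kb that named different genes, 27 of 136 had a term in common (19.9%, 13.5 to 27.6) and 11 the same set (8.09%). At gaps of 50 kb or more, 181 of 1369 did so (13.2%, 11.5 to 15.1) and 23 had the same set (1.68%, 1.07 to 2.51).

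The 6 matched pairs covered protease inhibitor, oxidoreductase, lipid breakdown, transcription factor and DNA polymerase genes. On chromosome 1, a peak covered the start of each of 2 cysteine protease inhibitor genes, MELO3C018580.2 and MELO3C018581.2, with 3611 bp between the peaks. On chromosome 10, the heme-binding oxidoreductase genes MELO3C011929.2 and MELO3C011928.2 had peaks 2274 and 596 bp upstream of their starts, and the second gene lay between the peaks. MELO3C020936.2 and MELO3C020935.2 on chromosome 11, annotated with lipid breakdown, had peaks 129 and 1371 bp inside. The sequence-specific transcription factor genes MELO3C016337.2 and MELO3C016338.2 on chromosome 7 had peaks 3050 bp upstream of the first and 2917 bp from the start of the second, past its end. MELO3C018538.2 and MELO3C018539.2 on chromosome 1, annotated as extracellular, had peaks 504 and 490 bp upstream. Genes with identical terms can be near-identical copies, and the labels do not say how reads that match both were handled.

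The DNA polymerase pair was in fact a pair inside 1 gene. Its peaks on chromosome 8, at 9033569 to 9034022 and 9036721 to 9037232, were placed by the authors' class in exons 15 and 22 of the 30 exons of MELO3C024596.2. The second peak was assigned to MELO3C033130.2, which overlaps the end of that gene and whose start lay 7910 bp downstream of the peak. In all, 15 pairs had both peaks in exons or introns, and in 15 of these 15 the exons or introns belonged to 1 host gene. Over the 68 paired peaks classed as exon or intron, the host gene was the assigned gene in 42.

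Paired peaks were spread over the location classes much as the others, with somewhat more in the promoter class and fewer in the distal intergenic class. The promoter class holds peaks within 3 kb of the assigned start on either side, also inside a gene or past the end of a short one. Of the 739, 332 were in the promoter class (44.9%, 41.3 to 48.6), against 39.5% (38.1 to 40.9) of the other 4754 peaks. Distal intergenic peaks made up 311 (42.1%, 38.5 to 45.7) against 47.4% (45.9 to 48.8). Exons held 40 of the paired peaks (5.41%), introns 28 (3.79%), the zone downstream of genes 18, 3 prime UTRs 9 and 5 prime UTRs 1. A gene start was covered by 33 paired peaks (4.47%, 3.09 to 6.21), against 3.60% (3.09 to 4.17) of the others. The promoter share was not particular to gaps of 1 to 5 kb. With the range widened to 1 to 10 kb, it was 44.6% of 1388 paired peaks. The interval of the paired share did not reach the share of the other peaks for the promoter and distal classes, but no test of the difference was made.

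**Figure D4:**
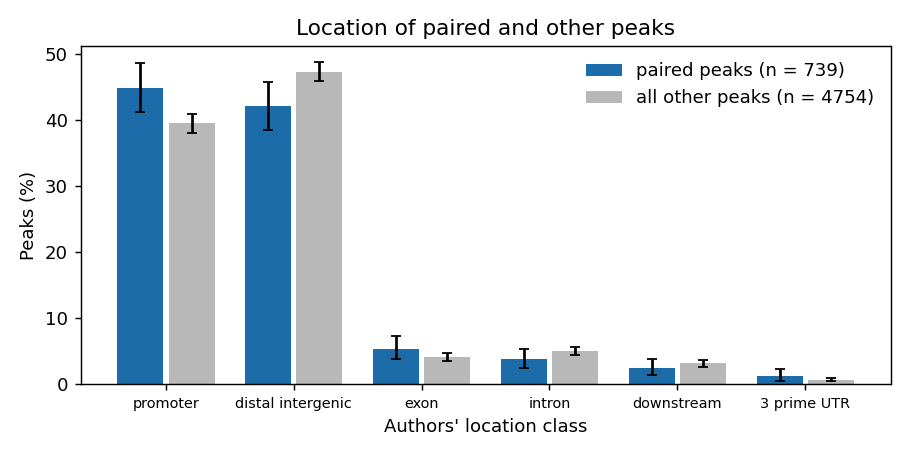
Share of peaks (vertical axis, percent) in the main location classes (horizontal axis, 5 prime UTR not drawn) for the 739 paired peaks (blue) and the 4754 others (grey), with 95% exact intervals as error bars. Promoter peaks were 44.9% of the paired and 39.5% of the other peaks, and distal intergenic peaks 42.1% and 47.4%.

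The peaks of a pair usually fell in the same class. Both were distal intergenic in 129 pairs (33.2%, 28.5 to 38.1) and both in the promoter class in 123 (31.6%, 27.0 to 36.5), and 58 pairs (14.9%) joined the 2 classes. Doubly distal pairs made up 41.5% below 1 kb, 25.2% at 5 to 10 kb and 28.8% of all adjacent pairs. For double promoter pairs these shares were 41.5%, 24.9% and 20.7%. Overall the class was shared in 258 of 389 pairs (66.3%, 61.4 to 71.0), compared with 87.7% (79.9 to 93.3) below 1 kb and 53.4% (48.2 to 58.6) at 5 to 10 kb. Of the 129 doubly distal pairs, 112 named 1 gene. Of the 123 double promoter pairs, 67 named 1 gene and 56 named different genes. The 67 comprised 36 across the gene start, 11 doubly upstream and 10 with peaks upstream and past the end. In 7 both peaks were inside, in 2 they were inside and past the end, and in 1 both were past it.

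Peak width did not set the paired peaks apart and was not shared within pairs. The median width was 424 bp (95% interval from order statistics 414 to 437) for paired peaks and 421 bp (416 to 426) for the others. Across the 389 pairs the widths of both peaks had a Pearson r of 0.032 and a Spearman rho of -0.0055, given as a description. The widths differed by a median of 99 bp. The widest pair by summed width was on chr0, with peaks of 546 and 1765 bp, 9190 and 6021 bp upstream of the transaminase gene MELO3C027610.2. The next, also on chr0, had 824 and 771 bp and was assigned to MELO3C027471.2, which has no GO term, and the third had 551 and 1016 bp and was assigned to the transporter gene MELO3C020716.2 on chromosome 12.

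All 12 numbered chromosomes and chr0 carried such pairs. Paired peaks made up from 9.84% (chromosome 2) to 17.3% (chromosome 1) of the peaks of a numbered chromosome, and 10.4% on chr0, the sequence that conventionally gathers unplaced pieces. In the outer 20% of the numbered chromosomes, with the last listed peak taken as the end, lay 29.2% (25.9 to 32.6) of the paired and 24.3% (23.0 to 25.5) of the other peaks. With the range widened to 1 to 10 kb, the paired share was 30.5%, so it was not particular to gaps of 1 to 5 kb. At 1 to 5 kb the paired share was the higher one on 8 of the 12 chromosomes. The order did not hold for wide peaks: when the list was limited to peaks of at least the median width, the outer zone held 22.2% (16.6 to 28.7, 44 of 198) of the paired and 26.0% (24.3 to 27.8) of the other peaks. Within the outer zone 65.4% (58.6 to 71.8) of paired and 61.5% (58.6 to 64.4) of other peaks were in the promoter class, and in the inner zone 37.3% (33.1 to 41.7) and 33.2% (31.6 to 34.8). The part that the density of genes plays in these shares was not tested.

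Among the numbered chromosomes, chromosome 5 had the highest share of pairs that named 1 gene. All of its 27 pairs did so (100%, 87.2 to 100), as did the 8 pairs of chr0 (63.1 to 100). On chromosomes 4 and 1 the shares were 57.4% (42.2 to 71.7, 27 of 47 pairs) and 59.1% (43.2 to 73.7, 26 of 44 pairs). The median gap on chromosome 5 was 3523 bp, against 3704 bp on chromosome 4, and 14 of its 27 pairs were doubly distal, against 10 of 47. At gaps of 5 to 10 kb chromosome 5 did not stand at the top. Its share there was 59.5% (42.1 to 75.2, 22 of 37 pairs), against 60.0% (36.1 to 80.9) on chromosome 9, 57.7% (36.9 to 76.6) on chromosome 1 and 17.2% (5.85 to 35.8) on chromosome 4. The position of chromosome 5 at 1 to 5 kb was noticed after the values were seen and was not tested.

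Runs of 3 or 4 peaks lay within, beside and far from genes. Of the 36 runs, 20 were assigned to 1 gene, 12 to 2 genes and 4 to 3, while 11 were wholly distal intergenic and 6 wholly in the promoter class. The tightest run of 4 spanned 514808 to 524977 of chromosome 9. Its first peak was 69 bp inside the ribosomal protein gene MELO3C022177.2. The next 3 belonged to MELO3C022176.2, a glucosylceramidase gene of sphingolipid breakdown, 3701 and 1970 bp upstream of its start and 1109 bp inside it.

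Another run of 4 lay on chromosome 6, at 11586714 to 11597731. It had a peak over the start of MELO3C019488.2, annotated with microtubule-severing ATPase activity, 1 lying 2310 bp inside it, 1 in its 3 prime UTR and 1 upstream of the sulfurtransferase gene MELO3C019489.2 by 4882 bp. The run of 4 on chromosome 10, at 21175412 to 21186697, was wholly intergenic and lay 18399 to 29098 bp from the start of MELO3C034479.2, which has no GO term. Of the runs of 3, the tightest lay wholly inside MELO3C003660.2 on chromosome 4, a zinc-binding gene annotated with stomatal opening, with peaks 1088, 2728 and 4258 bp from its start, the last of them in intron 10 of 10. The next was intergenic, 18864 to 22675 bp upstream of the kinase gene MELO3C005429.2 on chromosome 9.

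By GO annotation, the genes of paired peaks were spread over all 19 function lists, at shares near that of listed genes at large. The 739 peaks named 449 genes, of which 351 had a GO term, or 10.3% (9.30 to 11.4) of the 3406 GO-annotated genes in the peak list. Each of the 19 lists had an interval that included 10.3%. The highest share was 16.5% (9.53 to 25.7, 15 of 91 genes) for DNA repair, replication and chromatin, and the lowest was 3.77% (0.460 to 13.0, 2 of 53) for calcium. The lists count listed genes by whether a neighbouring peak lay 1 to 5 kb away, so they say nothing of melon genes outside the peak list.

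**Figure D5:**
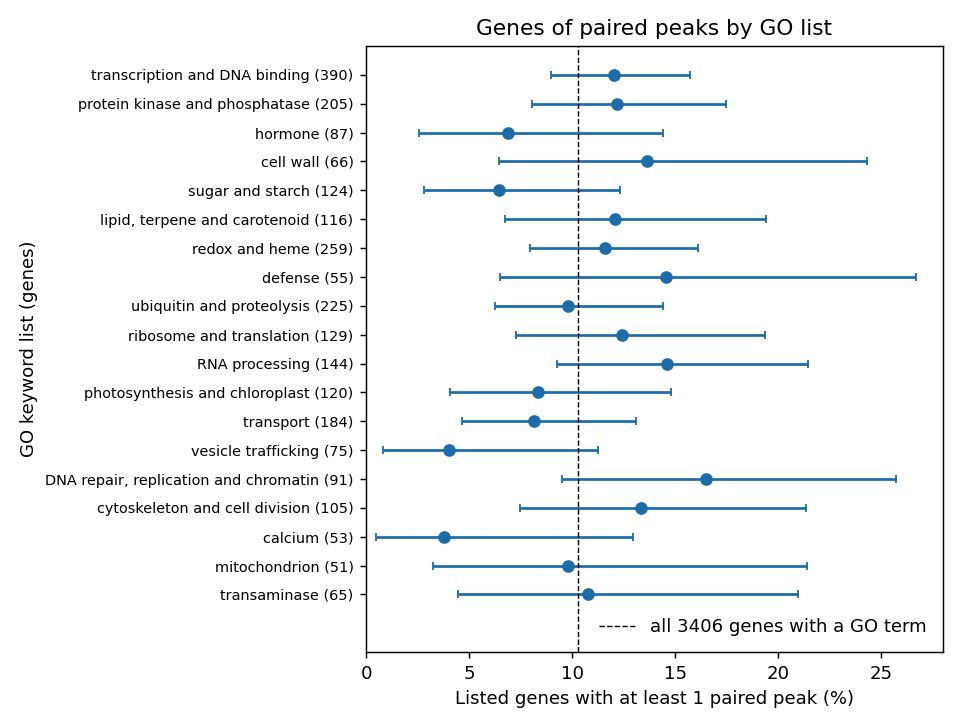
Share of listed genes with at least 1 paired peak (horizontal axis, percent) for each of 19 GO keyword lists (vertical axis, gene numbers in brackets), with 95% exact intervals as bars and the share of all 3406 GO-annotated genes, 10.3%, as a dashed line. Every bar crosses the line.

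Among regulatory genes, 47 of 390 in the transcription and DNA binding list (12.1%) and 25 of 205 for protein kinases and phosphatases (12.2%) had a paired peak. In 28 (7.18% of the list, 4.82 to 10.2) and 16 (7.80%, 4.53 to 12.4) of them 1 gene took both peaks. Over all 3406 GO-annotated genes this held for 198 (5.81%), a share inside both intervals. MELO3C021871.2 on chromosome 11, a DNA-binding gene, had peaks 754 bp inside and 2310 bp from its start, past its end, and another peak made it a run of 3. The tyrosine phosphatase gene MELO3C007580.2 on chromosome 8 had both peaks inside, 2661 and 4150 bp from its start. In the calcium list, the calcium-binding protein kinase gene MELO3C026727.2 on chromosome 8 had peaks 11765 and 14019 bp from its start, past its end.

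Hormone and defense genes with pairs numbered 6 of 87 (6.90%) and 8 of 55 (14.5%). MELO3C012221.2 on chromosome 10, annotated with a transcriptional coactivator of the mediator complex, jasmonic acid signalling and flower development, had a peak 91 bp upstream. Another lay 3061 bp inside, in exon 12 of 15, which the list counts from the end of this reverse-strand gene. The corepressor gene MELO3C022678.2 on chromosome 4, annotated with the response to jasmonic acid and wounding, had both peaks past its end, 2195 and 5723 bp from its start. The defense gene MELO3C023360.2 on chromosome 1 was 69097 bp from the nearest of the 3 peaks in its run.

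Cell wall genes with a paired peak were 9 of 66 (13.6%), and sugar and starch genes 8 of 124 (6.45%). The xyloglucan-modifying gene MELO3C004089.2 on chromosome 5, whose class of enzyme remodels cell wall glucans, had peaks 8270 and 11167 bp upstream in a run of 3. MELO3C029017.2 on chromosome 1, a cellulose synthase gene, had them 10786 and 13131 bp upstream. The structural cell wall protein gene MELO3C023678.2, also on chromosome 1, was 67537 bp from the nearer one. Of the 9 cell wall genes, 4 had a paired peak in the promoter class, each in a pair that named another gene for its partner. They included MELO3C018504.2 (chromosome 1), whose peak lay 2142 bp upstream, and the pectin-degrading polygalacturonase gene MELO3C009749.2 on chromosome 4, with a peak 1138 bp from its start, past its end. Both were chosen after their values were seen.

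In lipid and redox metabolism, 14 of 116 genes (12.1%) and 30 of 259 (11.6%) had a paired peak. MELO3C004250.2 on chromosome 5, a dioxygenase gene of oxylipin synthesis, from which plants make jasmonate-type signals, had both peaks inside. They lay 1582 and 3797 bp from its start, the farther one in exon 3 of 9, counted from the gene's end. Of the 67 genes with both peaks in the promoter class, 54 had a GO term, and 10 of these were in the redox list (18.5%, 9.25 to 31.4), MELO3C005561.2, MELO3C030550.2 and MELO3C027020.2 among them. That list makes up 7.60% of the listed genes with a GO term, whatever the class of their peaks, so this is not a matched background. Of the 30 redox genes with a paired peak, 24 had 1 in the promoter class. The count of 10 was the highest of the 19, was singled out after its value was seen and was not tested. The next highest were 4 each for transcription and for kinases and phosphatases, and the hormone, cell wall, vesicle, calcium and mitochondrial lists had 0. Transaminase genes numbered 7 of 65 (10.8%), and the pair of MELO3C027457.2 on chr0 lay 26295 and 28225 bp from its start.

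For protein synthesis and turnover, the counts were 16 of 129 for ribosome and translation (12.4%), 21 of 144 for RNA processing (14.6%) and 22 of 225 for ubiquitin and proteolysis (9.78%). The threonyl-tRNA ligase gene MELO3C022873.2 on chromosome 10 had peaks 8035 and 10082 bp upstream. MELO3C019532.2 on chromosome 6, annotated as a methionyl-tRNA ligase gene, was assigned a pair 2796 and 4752 bp from its start, past its end. Both peak centres lay inside another listed gene, and the second peak was classed in intron 8 of 13 of a neighbouring gene. The RNA modification gene MELO3C030009.2 on chromosome 3 had peaks 1587 and 3181 bp upstream. MELO3C012003.2 on chromosome 10, a ubiquitin transferase gene, had a peak over its start and one 1759 bp inside. The peptidase gene MELO3C030483.2 on chromosome 4 had both past its end, 5643 and 7381 bp from its start.

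Of chloroplast genes 10 of 120 (8.33%), of mitochondrial genes 5 of 51 (9.80%), of transport genes 15 of 184 (8.15%) and of vesicle trafficking genes 3 of 75 (4.00%) had a paired peak. MELO3C011810.2 on chromosome 10, annotated as magnesium chelatase, an enzyme of chlorophyll synthesis, had both peaks inside. They lay 1412 and 3639 bp from its start, the farther one in exon 2 of 4, counted from the gene's end. MELO3C004528.2 on chromosome 5, of respiratory complex I, had them 5356 and 10068 bp upstream. The transmembrane transport gene MELO3C007754.2 on chromosome 8 had peaks 1809 bp inside and 3436 bp from its start, past its end. For the autophagy and vesicle transport gene MELO3C015877.2 on chromosome 1 both lay inside, at 1732 bp and in exon 5 of 11 at 3882 bp. MELO3C006811.2 on chromosome 6, of the Golgi transport complex, had them 2272 and 7116 bp upstream.

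Among cell division and genome maintenance genes, 14 of 105 in the cytoskeleton and cell division list (13.3%) and 15 of 91 in the DNA list had a paired peak. The DNA replication gene MELO3C020815.2 on chromosome 11 had peaks 506 and 2113 bp inside. MELO3C023972.2 on chromosome 4, annotated with telomerase reverse transcriptase activity, which extends chromosome ends, had peaks 376 bp inside and 1165 bp upstream. MELO3C031729.2 on chromosome 6, annotated with the cell cycle and a transcriptional repressor complex, had peaks 1149 and 3039 bp upstream, the farther one in an intron of another gene. The cyclin-dependent kinase inhibitor gene MELO3C020458.2 on chromosome 5 had them 3407 and 5246 bp upstream.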

How the data were processed

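DAP-seq was done on 4 libraries, 2 with MBP-His-CmNOR and 2 with MBP-His. The submitters' processing notes name MACS2 (which calls peaks) and deepTools. The labels state no version, threshold, aligner or build, nor how the libraries were combined. How strictly peaks were called, and whether neighbouring summits were merged, decides how many close pairs a list holds. The authors deposited 1 table of 5493 peaks, per the file headers, with positions, widths and distances in bp and no other unit. Width equalled end minus start plus 1 in 5493 of 5493 rows. Distances are the authors' own, counted to the gene start from whichever end of the peak is closer, and placement upstream, inside or past a gene went by the peak centre. Exon numbers are also theirs and rise along the chromosome. In the reverse-strand gene MELO3C018710.2, exon 10 of 25 lay 6446 bp from the start and exon 17 lay 4109 bp from it.

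Gene identifiers are those of the list, and 0 of 4510 were found among the names in RefSeq's table for assembly USDA_Cmelo_AY_1.0. GO terms therefore stand in for names, and no sequence is shown. Pair finding and placement were checked on 300 simulated pairs, of which 300 were recovered. Each simulated pair stood alone with 1 gene, so runs, overlapping genes and pairs of different genes were not covered by this check. The 19 GO lists are keyword searches on GO names. The cytoskeleton and phosphatase searches were corrected after terms they matched by accident had been read. Members and lists were chosen with earlier results of these data known. Named pairs are those with the smallest gaps in each layout (6 doubly upstream, 5 each across a start, enclosing their gene, or divergent), the 5 runs with most peaks and, among equals, the smallest summed gap, the 3 widest pairs, up to 2 genes per GO list whose pair they share, and pairs at the rule's limits. Others are said to have been chosen after their values were seen, as were the 6 pairs with identical GO terms. Alternatives were other gap limits, centre distances, overlap rules, end sizes, and lists without chr0, narrow peaks or runs. Python 3.11.15, numpy 2.4.6, pandas 2.3.3, scipy 1.17.1 and matplotlib 3.10.9 were used.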

Additional observations from a re-analysis of the deposited data

How the results depend on the processing

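Gap limits moved the placement of pairs most. With gaps of 1 to 3 kb, 3 to 5 kb and 1 to 10 kb, the paired peaks numbered 403, 362 and 1388, the share of pairs with 1 gene was 83.9%, 61.4% and 60.5%, the share with a gene start between the centres 20.5%, 33.2% and 34.5%, and the share enclosing a whole gene 3.90%, 12.0% and 13.9%. With centre distances in place of gaps, 78.3% of pairs named 1 gene and 5.25% enclosed a gene. With peaks of at least the median width alone, 208 peaks were paired, 32.1% of pairs had a gene start between the centres, the median width was 502.5 bp by construction, and 22.2% of paired peaks lay in the outer 20%, below the 26.0% of the other wide peaks, where the full list had the paired share above. An outer zone of 10% held 14.0%. These are 19 of 67 recomputed values, and the other 48 stayed within the interval of the value reported or, for a count, close to it, among them all of those for the promoter class. For that class only the paired share was recomputed, and not its order against the other peaks. With wide peaks alone the paired share was 41.8%, and no promoter share of the other wide peaks was computed. The lower peak count and larger width under the width filter and the lower share in the smaller zone follow from construction, and the cause of the other shifts was not tested. No paired analysis was possible because the list has no value per library, and for that reason no replicate could be left out. A stricter peak threshold could not be set without a score, so width stood in for it.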
